A study of Drosophila melanogaster with 11 samples.

Results

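The proteasome subunit genes of *Drosophila* were followed through nascent RNA of Kc cells. They were chosen by symbol alone: names that begin with *Prosalpha* or *Prosbeta*, or with *Rpn* or *Rpt* and a digit. The rule found 48 genes among the 17771 of the count table. Of these, 14 encode the core particle, 18 encode the regulatory particle and 16 are testis-type paralogs, whose symbols carry a further letter (R or T). All 48 are protein coding, and all 48 have the same start and end in the dm6 annotation used here as in the count table.

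Kc cells are an embryonic, hemocyte-like female cell line. The groups were *M1BP* knockdown (20 µg of dsRNA, replicates 2 and 3), *mod(mdg4)* knockdown (5 µg of dsRNA targeting the insulator isoform, replicates 1 and 2), a library labelled *Cp190* knockdown (12 µg of dsRNA, replicate 1) and mock transfection without dsRNA (replicates 1 to 4). All cells were taken at 5 days and given 0.2 mM 5-ethynyl uridine (EU) for 1 h, so that RNA made in that hour could be captured and sequenced. M1BP is a zinc-finger protein that binds the promoter element Motif 1, and CP190 and Mod(mdg4) are proteins of the *gypsy* chromatin insulator. The study describes its RNA-seq replicates as biological, and the p-values measure the spread between these libraries. The paper's methods normalized separate nascent RNA experiments each on their own, whereas here all 4 mock libraries were pooled. The labels do not say which mock libraries belong with which knockdown. A difference between experiments and a knockdown effect therefore cannot be fully told apart.

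The proteasome is the large protease that degrades proteins tagged with ubiquitin in the cytoplasm and nucleus. Its core particle is a barrel of stacked alpha and beta rings that holds the active sites inside. Its regulatory particle caps the barrel: a base with a ring of ATPases recognizes, unfolds and translocates the substrate, and a lid removes the ubiquitin chain. *Drosophila* also has duplicated subunit genes that are used mainly in the male germline.

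Total counts were 11312004 and 13181160 after *M1BP* knockdown, 7462623 and 11808443 after *mod(mdg4)* knockdown, 9476448 in the library labelled *Cp190* knockdown and 24944604 to 29680851 in mock libraries. The targeted gene *M1BP* had 21.4 and 31.4 CPM (counts relative to library size, scaled by the trimmed mean of M-values) after its knockdown and 44.3 to 54.8 CPM in mock libraries. *Cp190* itself had 4379 CPM in the library labelled *Cp190* knockdown and 340 to 462 CPM in mock libraries, the opposite of a decrease. The reason was not tested, and this gene alone does not settle the label. That library is called by its label throughout. The *mod(mdg4)* gene was not analysed here. Mock replicates 1 and 2 correlated more closely with each other (Pearson's r = 0.9965 of log2 CPM over 8301 genes), and so did replicates 3 and 4 (0.9950), than libraries of different pairs did (0.9836 to 0.9899). Of 9 plasmatocyte-type markers of this line, 7 reached 1 CPM in every mock library, against 2 of 10 markers of the testis program.

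Motif 1, the element that M1BP binds, was looked up first for the members. Binding of M1BP at these genes was not examined here. The matches listed for both strands within 50 bp of an annotated start were used, from a list cut short at 1999 matches; the others were not used here. A listed match lay there for 5 of the 48 members (10.4%), against 641 of all 17771 genes (3.61%), and for 6.3% of the genes tested after *M1BP* knockdown. The sites are given 5′ to 3′ in the direction of the gene, with capitals for letters that fit the Motif 1 consensus, and their positions may be off by 1 base, since the list does not state from where it counts.

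*Rpt4*, chrX:6291217-6291231, minus strand, beginning 14 bp into the gene: GtTACGGgCACACTG
*Prosalpha4*, chrX:16276298-16276312, plus strand, 28 bp into the gene: GCTgCGGTCACACTG
*Prosalpha2*, chr3R:12431333-12431347, plus strand, 12 bp into the gene: cATtCGGTCACACTG
*Prosbeta4*, chr2L:16732124-16732138, minus strand, beginning 5 bp before the gene: cATACGGcCACtCTG
*Prosbeta6*, chr3L:16610411-16610425, minus strand, beginning 7 bp before the gene: aCaACGGTCACAtTG

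The *Prosalpha4* site fits the consensus in 14 of 15 letters, the *Rpt4* and *Prosalpha2* sites in 13 each, and the *Prosbeta4* and *Prosbeta6* sites in 12 each. A further member, *Prosbeta5R1*, had a listed match 314 bp into the gene. A member without a listed match only lacks one in this shortened list.

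Not every member could be counted. Reads that overlap more than 1 gene on the same strand were not assigned, and *Rpt1* (2R:7652440-7653954, minus strand), an ATPase of the base, lies whole inside *CG17985*. It had 0 counts in all 9 libraries, which allows up to 3 counts in each, while *CG17985* had 259 and 189 counts after *M1BP* knockdown and 742 to 1024 counts in mock libraries. These are raw counts, not scaled for the larger mock libraries. The paralogs *Rpn12R* and *Rpn13R* lie in the same way inside *Sytbeta* and inside *rg* and *CG15465*, and both had 0 counts throughout. *Prosalpha1*, an alpha-ring subunit, and *Prosalpha1R* are tandem copies on 2R: 3 of the 5 exons annotated for each (580, 177 and 100 bp) have the same length and lie 3110 bp apart. Reads that align to more than 1 place were not counted, and *Prosalpha1* had 0 to 39 counts per library, against 459 to 2785 for the alpha-ring genes *Prosalpha2* to *Prosalpha7*. The values of these 5 genes therefore say little about their transcription. The other 43 members comprise 13 core, 17 regulatory and 13 testis-type genes. An antisense gene overlaps 18 of the 48 members, and the counting used strand.

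The core and regulatory genes formed a narrow band of nascent RNA levels. Levels between genes were compared as CPM per kb of gene length, introns included. Over the 30 countable core and regulatory genes, the mean over mock libraries ran over a 5.96-fold range, and 80% of them lay between 33.4 and 78.6 CPM per kb. The SD of their log2 levels was 0.54, against 2.40 over the 6916 genes that had 10 counts or more in each library, whose median was 14.0 CPM per kb, while the median of the 30 was 46.2 CPM per kb. The shared gene structure was compact, with a median gene length of 1390 bp and a median of 10.2% of the gene in introns over the 32 core and regulatory genes.

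The highest level belonged to *Rpn2*, the large scaffold subunit of the base, with 96.3 ± 5.43 CPM per kb after *M1BP* knockdown (SD, n = 2), 125 ± 36.9 after *mod(mdg4)* knockdown (SD, n = 2) and 136 ± 22.6 in mock cells (SD, n = 4). Next came *Rpn5*, a scaffold subunit of the lid, with 108 ± 7.32 CPM per kb in mock cells, whose range (100.3 to 117) overlapped that of *Rpn2* (109 to 158). *Prosbeta5*, which carries the chymotrypsin-like active site, was the highest core gene at 82.7 ± 6.97 CPM per kb in mock cells, with no mock library in the range of *Rpn5*. The lowest countable gene was *Rpn8*, a lid subunit that pairs with the deubiquitinase Rpn11, at 22.9 ± 1.57 CPM per kb in mock cells. *Rpn8* is also the longest of these genes, with 4500 bp, and 66.0% of it is intron. Among mock libraries the steadiest gene was the ATPase *Rpt3* (coefficient of variation 1.51%) and the least steady was the beta-ring gene *Prosbeta7* (31.0%). Mock replicates 1 and 2 did not overlap with replicates 3 and 4 for 18 of the 30 genes (60%), against 74.3% of those 6916 genes.

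**Figure D1:**
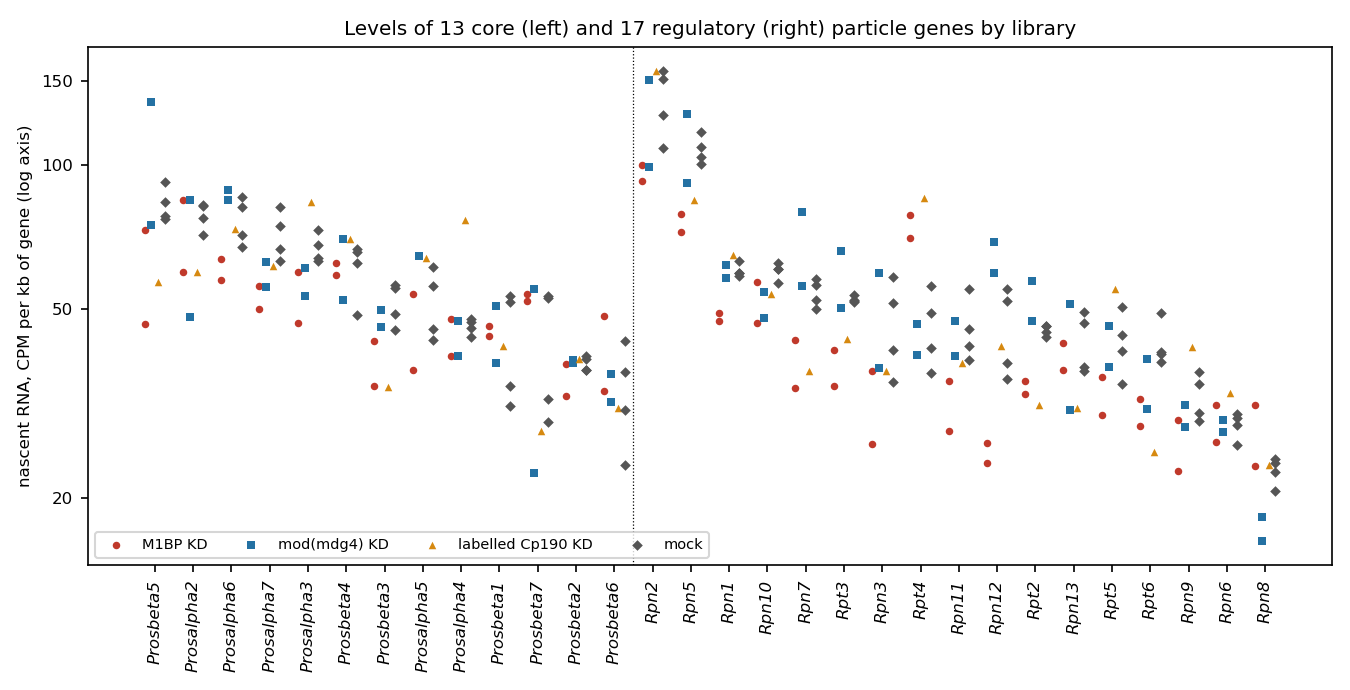
Nascent RNA of 13 core and 17 regulatory particle genes as CPM per kb of gene length on a log axis, with each point 1 library coloured by group. By the mean over mock libraries *Rpn2* and *Rpn5* are the highest and *Rpn8* is the lowest, while the order differs in single libraries.

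*M1BP* knockdown was compared with mock transfection to ask how loss of the promoter-binding protein M1BP moves transcription of the proteasome genes. Few subunit genes passed the test, and the summed levels of both particles were below those of mock cells. The summed level of the 17 countable regulatory genes was 1626 and 1614 CPM after *M1BP* knockdown and 1884 to 2063 CPM in mock libraries. The summed level of the 13 core genes was 798 and 728 CPM after *M1BP* knockdown and 832 to 869 CPM in mock libraries. Neither sum overlapped between the groups. Each sum is weighted to the genes with most reads, and *Rpn2* alone had 374 and 345 CPM after *M1BP* knockdown and 406 to 589 CPM in mock libraries. The median log2 fold change was -0.12 over the 6916 genes with 10 counts or more in each library. It was -0.07 over the 13 core genes and -0.35 over the 17 regulatory genes. The core median was thus not below that of the 6916 genes, although the core sum was below mock. No sum of other genes of that depth was set beside these sums. The 9 plasmatocyte-type markers of this line summed to 4912 to 5348 CPM after *M1BP* knockdown and 5420 to 7465 CPM in mock libraries. The gene *srp* was the largest part of each sum. It had 2918 and 2280 CPM after *M1BP* knockdown and 3472 to 5673 CPM in mock libraries (adjusted p = 0.053 in edgeR). The lower sum is therefore no measure of the whole list, of which 3 were called higher and 2 lower in edgeR. The part of these markers in the proteasome values was not tested. Other marker lists stood apart as well: after *M1BP* knockdown the 3 neuron markers summed to 145 to 179 CPM (79.1 to 131 CPM in mock libraries), the 3 muscle markers to 6.42 to 12.9 CPM (2.85 to 3.803 CPM in mock libraries, 1 called higher) and the 3 dosage compensation genes to 12.8 to 19.4 CPM (26.0 to 34.3 CPM in mock libraries, 1 called lower), and their part was not tested either. Here and below, fewer cells that transcribe a gene and less RNA per cell cannot be told apart.

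Of the 48 members, 37 passed the default expression filter of edgeR (the quasi-likelihood test of edgeR with Benjamini-Hochberg adjustment over 9511 genes, adjusted p below 0.05). After *M1BP* knockdown 3 of the 37 were higher (8.11%), against 16.5% of all genes tested, and 3 were lower (8.11%), against 11.5%. Of the 3 higher, *Prosalpha1* and *Prosalpha4T2* passed the expression filter only through the *M1BP* knockdown libraries in which they are high, so the share higher among members is no measure of all members, and with 10 counts or more in each library *Rpt4* alone was higher. Without mock replicate 2, 3 or 4 the number lower was 1, 1 and 0, against 717 of 9456, 929 of 9460 and 582 of 9466 genes tested. When only library size was scaled, 3 members were higher and 8 lower, against 1399 and 1430 of 9511 genes. With upper-quartile scaling 3 were higher and 1 was lower, against 1743 and 843 of 9511 genes. Of the 30 countable core and regulatory genes, which all had 10 counts or more in each library, 1 was higher and 3 were lower (10%). Over the 6916 genes of that depth, 11% were higher and 13.6% lower. Both *M1BP* knockdown libraries lay below all 4 mock libraries for 14 of the 30 genes and above them for 1, against 27.1% and 22.8% of all genes tested. These shares were not counted over the 6916 genes of that depth, of which 60.5% had a log2 fold change below 0.

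Log2 fold changes were summarised for each part of the particle as a description, with no test between parts. In the regulatory particle 14 of 17 genes had a log2 fold change below 0, against 52.1% of all genes tested. Over the 6916 genes of that depth, 60.5% were below 0. The regulatory median was -0.35, against -0.03 over all genes tested and -0.12 over those 6916 genes. In the core particle 9 of 13 genes were below 0, with a median of -0.07. By part, the median log2 fold change was -0.45 over the 8 lid genes (6 below 0), -0.35 over the 5 countable ATPase genes (4 below 0), -0.22 over the scaffolds and ubiquitin receptors *Rpn1*, *Rpn2*, *Rpn10* and *Rpn13* (all 4 below 0), -0.21 over the 6 countable alpha-ring genes (all 6 below 0) and 0.04 over the 7 beta-ring genes (3 below 0). These medians rest on 4 to 8 genes with overlapping ranges, from -0.81 to 0.31 in the lid and from -0.42 to 0.38 in the beta ring. Another scaling shifts all genes together: with library size only, the median of all genes was -0.13 and that of the regulatory genes -0.45. Over 17 alternatives the regulatory median minus that of all genes lay between -0.39 and -0.26, while the core median ran from -0.20 to 0.01 and was above 0 with upper-quartile scaling. Against the median of the 6916 genes of that depth, the regulatory difference was smaller, at -0.23 with all libraries and TMM scaling.

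*Rpt4* was the 1 countable core or regulatory gene that rose. It encodes an ATPase of the base ring that unfolds substrates, and it lies at X:6289470-6291245 on the minus strand with the Motif 1 match shown above. It had 125 and 139.5 CPM after *M1BP* knockdown, against 87.1, 99.1, 65.1 and 73.4 CPM in mock replicates 1 to 4. Both knockdown libraries lay above every mock library. The log2 fold change was 0.75 ± 0.18 (SE) with an adjusted p of 0.014 (edgeR), and the gene had 1522 to 2856 counts in these libraries. Without *M1BP* knockdown replicate 3 it was 0.63 with an adjusted p of 0.068, and against mock replicates 1 and 2 alone 0.56 with 0.055, while the range over the alternatives was 9.3e-04 to 0.17. *Rpt4* shares 93 bp with *wuho* on the other strand, at the 3′ end of both genes.

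The largest decrease among the countable core and regulatory genes was that of *Rpn12*, a small lid subunit encoded by 1 exon (3L:16583028-16584022, plus strand). It had 26.0 and 23.6 CPM after *M1BP* knockdown, against 35.4, 38.2, 54.7 and 51.6 CPM in mock replicates 1 to 4. The knockdown libraries lay below all mock libraries, which themselves formed a lower and a higher pair. The log2 fold change was -0.81 ± 0.22 (SE, adjusted p = 0.024 in edgeR). The adjusted p was 0.053 without *M1BP* knockdown replicate 2, 0.079 without replicate 3 and 0.068 without mock replicate 4, at log2 fold changes of -0.90, -0.78 and -0.75.

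*Rpn5*, the lid scaffold (3R:5789493-5791569, plus strand), had 150.4 and 164 CPM after *M1BP* knockdown, against 208, 215, 226 and 243 CPM in mock replicates 1 to 4. The groups did not overlap, and the log2 fold change was -0.46 ± 0.13 (SE, adjusted p = 0.027 in edgeR). The call was lost without *M1BP* knockdown replicate 2 (log2 fold change -0.42, adjusted p = 0.064) and without mock replicate 2, 3 or 4 (-0.49, -0.45 and -0.42, with adjusted p of 0.057, 0.051 and 0.090).

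*Rpt3*, another ATPase of the base ring (X:11125101-11126785, plus strand), had 57.9 and 69.1 CPM after *M1BP* knockdown, against 87.3, 88.0, 89.98 and 87.1 CPM in mock replicates 1 to 4. The mock libraries lay within 3 CPM of each other and the knockdown libraries well below them. The log2 fold change was -0.42 ± 0.14 (SE, adjusted p = 0.044 in edgeR). This call was lost when any 1 library other than *M1BP* knockdown replicate 3 was left out, with adjusted p from 0.0797 to 0.106 and log2 fold changes of -0.33 without *M1BP* knockdown replicate 2 and -0.44 to -0.41 without 1 mock library. The plot of the genes that passed the threshold shows these values library by library.

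**Figure D2:**
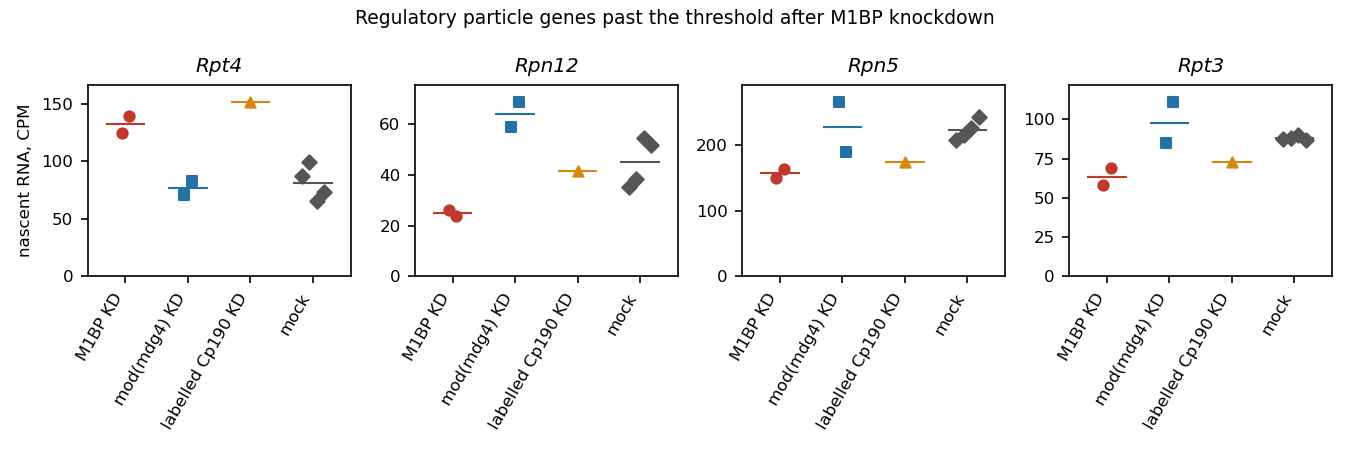
Nascent RNA in CPM of the 4 countable regulatory genes past the threshold after *M1BP* knockdown, with each point 1 library and each bar the mean of its group. *Rpt4* is at 125 and 139.5 CPM after *M1BP* knockdown, above all mock libraries, and *Rpn12*, *Rpn5* and *Rpt3* lie below them.

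None of the 13 countable core genes passed the threshold after *M1BP* knockdown in edgeR with all libraries and TMM scaling, or in DESeq2. At an unadjusted p below 0.05 in edgeR, 2 were lower and 0 higher, against 18.8% and 21.8% of all genes tested. *Prosbeta5* was among them, with 87.6 and 55.8 CPM after *M1BP* knockdown and 92.4 to 111 CPM in mock libraries (log2 fold change -0.42 ± 0.19, SE, adjusted p = 0.12 in edgeR). The other was the alpha-ring gene *Prosalpha7*, with 59.9 and 66.8 CPM after *M1BP* knockdown and 75.5 to 98.0 CPM in mock libraries (-0.39 ± 0.15, SE, adjusted p = 0.091 in edgeR). *Prosbeta1* and *Prosbeta2*, which carry the other catalytic sites, had log2 fold changes of 0.12 ± 0.24 and -0.06 ± 0.14 (SE). In both genes the knockdown and mock libraries overlapped. Under other settings of edgeR some core genes were called: *Prosbeta5* (-0.81, adjusted p = 0.012) and *Prosalpha3* (-0.49, 0.047) were lower without *M1BP* knockdown replicate 2, *Prosalpha7* was lower with library size only (-0.48, 0.036), and *Prosbeta7* was higher against mock replicates 3 and 4 alone (0.82, 0.027).

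Further regulatory genes lay below every mock library without passing the threshold in edgeR with all libraries. *Rpn2* had 374 and 345 CPM after *M1BP* knockdown, against 406, 474, 589 and 564 CPM in mock replicates 1 to 4 (log2 fold change -0.45 ± 0.17, SE, adjusted p = 0.081 in edgeR). *Rpn7*, *Rpn11*, *Rpt2*, *Rpt6* and *Rpn1* were also below every mock library, with log2 fold changes from -0.48 to -0.28 and adjusted p from 0.059 to 0.10. DESeq2 called *Rpn7* (adjusted p = 0.041) and *Rpt2* (0.045) lower. In edgeR *Rpn7* was lower without *M1BP* knockdown replicate 3 (-0.65, adjusted p = 0.022), *Rpn2* was lower without mock replicate 1 (-0.56, 0.045) and against mock replicates 3 and 4 alone (-0.64, 0.035), and *Rpn2*, *Rpn7*, *Rpn11* and *Rpt2* were lower with library size only. *Rpn11*, the deubiquitinase of the lid, had 48.9 and 38.4 CPM after *M1BP* knockdown and 54.2 to 76.3 CPM in mock libraries. *Rpn8* ran the other way, with 141 and 105 CPM after *M1BP* knockdown and 93.2 to 109 CPM in mock libraries (0.31 ± 0.15, SE, adjusted p = 0.15 in edgeR). Its value rested on replicate 2 of the knockdown: without *M1BP* knockdown replicate 3 it was called higher (0.47, adjusted p = 0.041), and without replicate 2 the log2 fold change was 0.06.

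*Prosalpha1*, the tandem copy, also passed the threshold, on few reads. It was tested only because of its counts in the *M1BP* knockdown libraries, and it did not pass the expression filter after *mod(mdg4)* knockdown. It had 39 and 13 counts after *M1BP* knockdown and 3, 4, 1 and 2 counts in mock replicates 1 to 4 (adjusted p = 0.0026 in edgeR). *CG18853*, the neighbour that begins the second copy of the tandem block, had 21 and 1 counts after *M1BP* knockdown and 0, 1, 3 and 0 counts in mock replicates 1 to 4. Because reads shared by both copies were not counted, it is uncertain how these counts relate to transcription of *Prosalpha1*.

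**Figure D3:**
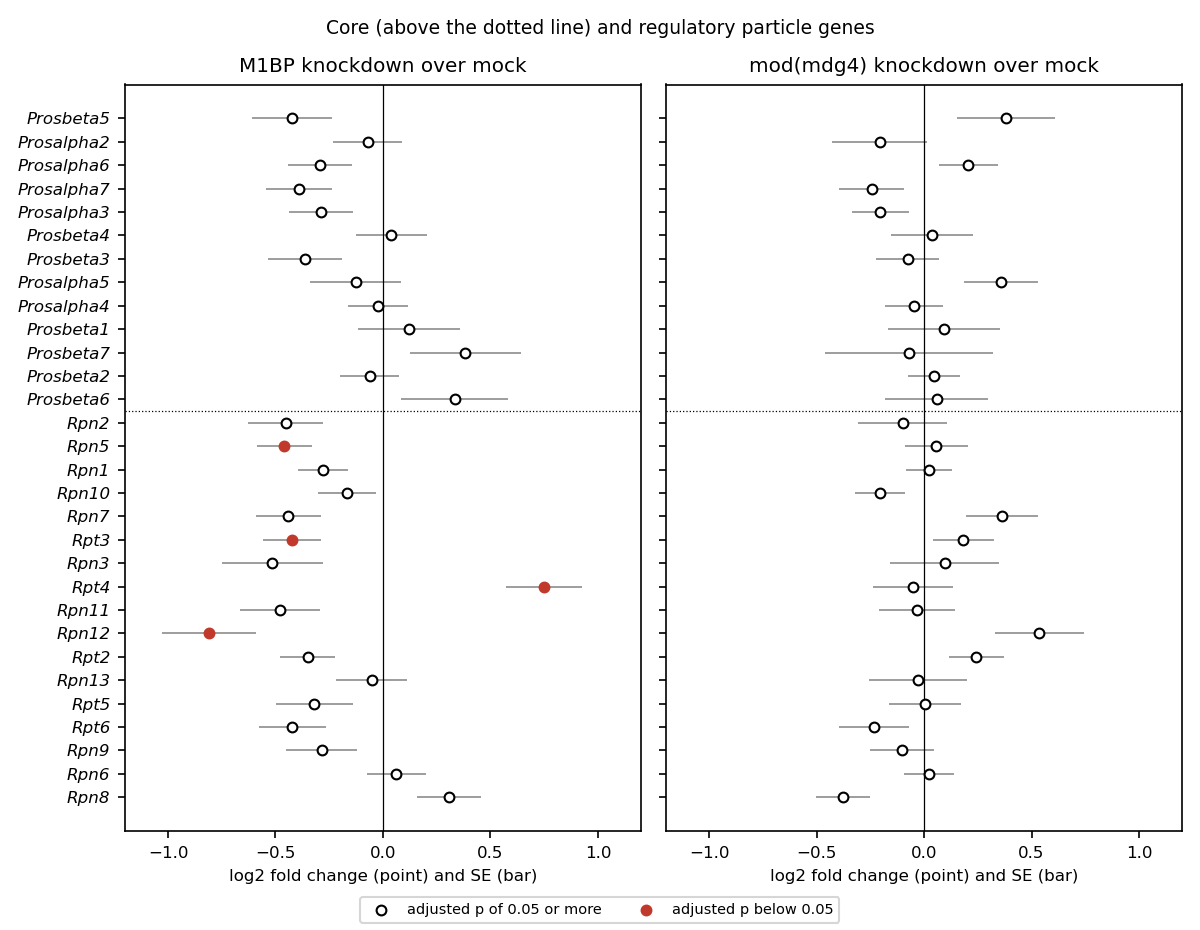
Log2 fold changes of the 30 countable core and regulatory genes after *M1BP* knockdown and after *mod(mdg4)* knockdown, each over the same 4 mock libraries (points are edgeR estimates, bars are 1 SE and filled points have an adjusted p below 0.05). After *M1BP* knockdown 14 of 17 regulatory genes are below 0, and after *mod(mdg4)* knockdown 8 of 17 are, against 52.1% and 49.5% of all genes tested. Over the 6916 genes with 10 counts or more in each library, 60.5% and 49.3% are below 0.

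The members with a Motif 1 match near their start were set beside those without. Among the 5 genes with a listed match the median log2 fold change was 0.04 with *M1BP* depleted, from -0.07 in *Prosalpha2* to 0.75 in *Rpt4*, with 1 higher and 0 lower. The alpha-ring gene *Prosalpha4*, whose site has the best fit, had 52.4 and 62.8 CPM after *M1BP* knockdown and 57.5 to 62.6 CPM in mock libraries (-0.02 ± 0.14, SE). *Prosbeta6*, a beta-ring gene, had 49.1 and 34.2 CPM after *M1BP* knockdown and 23.99 to 43.7 CPM in mock libraries, so the groups overlapped. The 25 core and regulatory genes without one had a median of -0.32, with 0 higher and 3 lower. Of the 5 genes with a match only *Rpt4* is regulatory, and the median was -0.07 over all countable core genes and -0.35 over the regulatory ones. A listed match and the class of particle therefore cannot be told apart in these medians. Over all genes tested with a listed match (599), 5.84% were higher and 13.2% lower with a median of -0.11, against 17.3%, 11.4% and -0.02 over the 8912 genes without. The list is shortened and so no test was run on these counts.

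*mod(mdg4)* knockdown served as the insulator-protein comparison, with the same 4 mock libraries. Of the 48 members 35 were tested, and none passed the threshold in edgeR, against 0.32% of all genes higher and 0.408% lower. At an unadjusted p below 0.05, 1 member was higher and 2 were lower, against 9.82% and 10.8% of all genes tested. DESeq2 called 1 member lower, the paralog *Prosbeta4R1*, against 498 of 13685 genes. Without *mod(mdg4)* knockdown replicate 1, edgeR called *Rpn7* and *Prosbeta5* higher and *Rpt3R* lower, and without replicate 2 it called *Rpt6R* lower. The median log2 fold change was 0.04 over the 13 core genes and 0.00 over the 17 regulatory genes (0.0041), against 0.0043 over all genes tested. The summed regulatory level was 2002 and 1912 CPM after *mod(mdg4)* knockdown and 1884 to 2063 CPM in mock libraries. The summed core level was 748 and 972 CPM after *mod(mdg4)* knockdown and 832 to 869 CPM in mock libraries, so these libraries lay on both sides of mock. *Prosbeta5* contributed to that spread, with 90.1 and 163 CPM.

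A few genes had both *mod(mdg4)* knockdown libraries outside the mock range. *Rpn12* had 59.0 and 68.7 CPM after *mod(mdg4)* knockdown, above the 35.4 to 54.7 CPM of mock libraries (log2 fold change 0.54 ± 0.21, SE, adjusted p = 0.20 in edgeR). *Rpn8* had 82.1 and 73.2 CPM after *mod(mdg4)* knockdown, below the 93.2 to 109 CPM of mock libraries (-0.38 ± 0.13, SE, adjusted p = 0.15 in edgeR). In all, 3 of the 30 core and regulatory genes were above all mock libraries and 4 were below, against 13% and 17.9% of all genes tested.

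The knockdowns were also compared directly, without mock libraries. Of 35 members tested, 1 was lower after *M1BP* knockdown than after *mod(mdg4)* knockdown and 0 were higher, against 1.68% and 4.84% of all 8757 genes tested. At an unadjusted p below 0.05, 3 were lower and 3 higher, against 8.99% and 12.2% of all genes tested, and DESeq2 called 1 lower and 1 higher. Without *mod(mdg4)* knockdown replicate 1, edgeR also called *Prosbeta5* lower, and without replicate 2 it called *Prosbeta7* higher. The lower gene was *Rpn12*, with 26.0 and 23.6 CPM after *M1BP* knockdown and 59.0 and 68.7 CPM after *mod(mdg4)* knockdown. Its log2 fold change was -1.32 ± 0.30 (SE, adjusted p = 0.017 in edgeR). Without *M1BP* knockdown replicate 2 or 3, where the lone library is assumed to vary like the other group, it was -1.38 (adjusted p = 0.0597) and -1.27 (0.093). *Rpt4*, the gene DESeq2 called higher, had 125 and 139.5 CPM after *M1BP* knockdown and 70.9 and 82.5 CPM after *mod(mdg4)* knockdown (0.83 ± 0.26, SE, adjusted p = 0.074 in edgeR). The median over the 17 regulatory genes was -0.29 and that over all genes tested -0.02. Over the 6916 genes with 10 counts or more in each library it was -0.09.

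The library labelled *Cp190* knockdown is a single library, so it was only placed against the range of the 4 mock libraries and has no test. Of 30 countable core and regulatory genes, 9 lay above that range, 13 below and 8 inside, against 38.4% of all genes compared above it and 45.8% below. None of the 30 differed by 2-fold from the mock mean in either direction, against 24.1% of all genes that were at least 2-fold higher and 20.4% that were at least 2-fold lower. *Rpt4* was the gene farthest above, with 151 CPM in the library labelled *Cp190* knockdown and 65.1 to 99.1 CPM in mock libraries. *Prosalpha4* followed with 101.3 CPM, against 57.5 to 62.6 CPM in mock libraries. The gene farthest below was the ATPase gene *Rpt6*, with 40.4 CPM against 62.2 to 79.1 CPM in mock libraries. *Rpn12* was inside the mock range at 41.6 CPM, and *Rpn5* (175 CPM) and *Rpt3* (72.6 CPM) were below it. The summed regulatory and core levels, 2020 and 832 CPM, lay at or inside the mock ranges of 1884 to 2063 and 832 to 869 CPM.

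**Figure D4:**
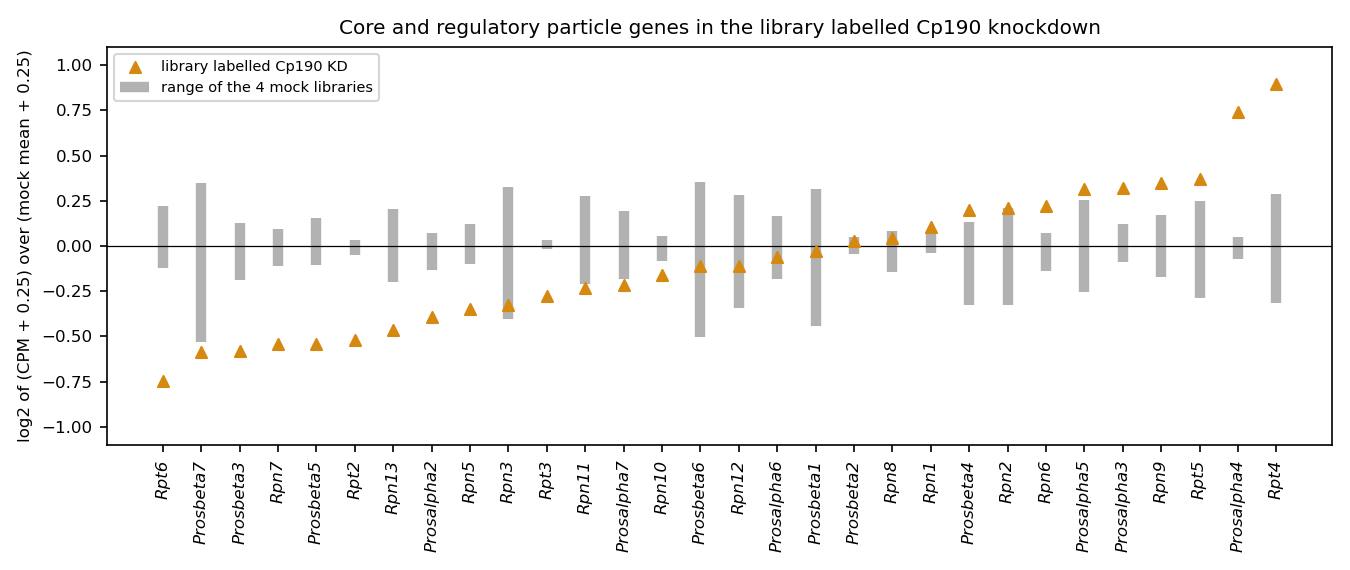
Log2 ratio of each of the 30 countable core and regulatory genes in the library labelled *Cp190* knockdown to the mean of the mock libraries, with 0.25 CPM added to both (triangles), and the range of the 4 mock libraries (bars). Genes run from *Rpt6*, farthest below, to *Rpt4*, farthest above.

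Most of the testis-type paralogs were nearly silent beside their core and regulatory relatives. Of the 16, 8 reached 10 counts in at least 1 library, and none of these exceeded 23.0 CPM in any library. The highest were *Rpt3R*, a copy of the ATPase gene *Rpt3*, and *Prosbeta2R2*, a copy of the catalytic beta-ring gene *Prosbeta2*. *Rpt3R* had 12.0 and 9.35 CPM after *M1BP* knockdown, 13.2 and 3.02 CPM after *mod(mdg4)* knockdown, 12.3 CPM in the library labelled *Cp190* knockdown and 13.6, 12.2, 23.0 and 20.2 CPM in mock replicates 1 to 4. *Prosbeta2R2* had 5.04 and 6.97 CPM after *M1BP* knockdown, 1.89 and 8.96 CPM after *mod(mdg4)* knockdown, 12.2 CPM in the library labelled *Cp190* knockdown and 4.75 to 9.23 CPM in mock libraries. *Rpt3R* was below every mock library after *M1BP* knockdown without passing the threshold (adjusted p = 0.14 in edgeR, and 0.047 against mock replicates 3 and 4 alone), and *Prosbeta2R2* overlapped with mock.

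*Rpt6R*, a copy of the ATPase gene *Rpt6*, varied widely between libraries of one group. It had 45 and 1 counts (3.66 and 0.0917 CPM) after *M1BP* knockdown and 5 and 51 counts (0.411 and 5.93 CPM) after *mod(mdg4)* knockdown. Mock libraries, which hold more reads, had 98 to 150 counts (3.61 to 5.42 CPM), so each knockdown had a library at or above the lowest mock level. The library labelled *Cp190* knockdown had 0 counts. The 0 counts correspond to a level at least 14.8-fold lower than the mock mean, at a floor of 3 counts in that library. Without *M1BP* knockdown replicate 2, *Rpt6R* was called lower after *M1BP* knockdown (adjusted p = 0.0019 in edgeR). *Prosbeta4R2*, a copy of *Prosbeta4*, likewise had 0 counts in the library labelled *Cp190* knockdown and 12 to 31 in mock libraries (at least 3.02-fold lower). Both *M1BP* knockdown libraries (9 and 18 counts) and both *mod(mdg4)* knockdown libraries (10 and 25) held reads. In CPM these were 0.732 and 1.65 after *M1BP* knockdown, 0.822 and 2.91 after *mod(mdg4)* knockdown and 0.442 to 1.24 in mock libraries. Its neighbour on 2L, *Prosbeta4R1*, had 0 and 4 counts (0 and 0.367 CPM) after *M1BP* knockdown and 0 and 0 counts after *mod(mdg4)* knockdown. It had 0 counts in the library labelled *Cp190* knockdown and 27, 26, 10 and 12 counts in mock replicates 1 to 4 (0.368 to 1.04 CPM). In edgeR it had an adjusted p of 0.21 after *M1BP* knockdown and 0.10 after *mod(mdg4)* knockdown.

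The other paralogs with reads were higher in a knockdown library. *Prosbeta5R2*, a copy of the catalytic gene *Prosbeta5*, had 36 counts in the library labelled *Cp190* knockdown and 3 to 7 counts in mock libraries (3.77 CPM against 0.104 to 0.269 CPM). *Prosalpha4T2*, a copy of *Prosalpha4*, had 7 and 14 counts after *M1BP* knockdown and 3, 3, 0 and 3 counts in mock replicates 1 to 4. It passed the threshold (adjusted p = 0.021 in edgeR), but not without *M1BP* knockdown replicate 3 (0.11) or mock replicate 2 (0.051), nor with no expression filter (0.060). It was tested only because of its counts in the *M1BP* knockdown libraries, and it was not tested after *mod(mdg4)* knockdown. *Prosalpha6T* had 16 and 0 counts after *M1BP* knockdown and 0 to 1 counts in mock libraries, so its reads came from 1 library. It was called higher without replicate 3 of that knockdown (adjusted p = 0.0064 in edgeR) and with no expression filter (0.046). The 10 testis-program markers summed to 13.8 to 16.3 CPM after *M1BP* knockdown, 22.5 to 23.1 CPM after *mod(mdg4)* knockdown (above every mock library), 15.2 CPM in the library labelled *Cp190* knockdown and 17.2 to 22.2 CPM in mock libraries, and their part in these values was not tested. The remaining 8 paralogs had at most 7 counts in any library.

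**Figure D5:**
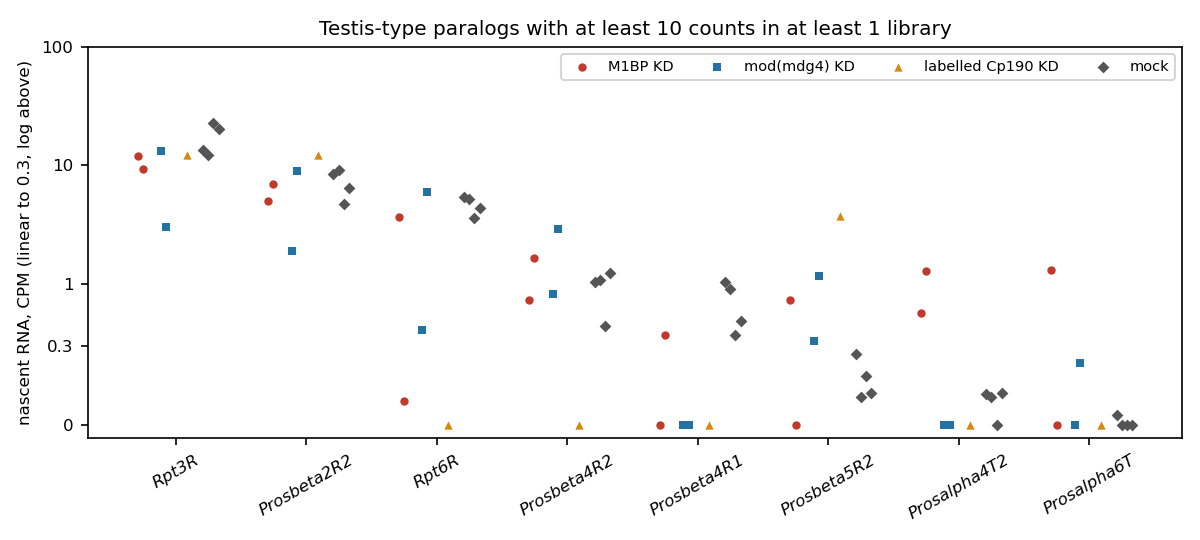
Nascent RNA in CPM of the 8 testis-type paralogs with at least 10 counts in at least 1 library, on an axis that is linear to 0.3 and logarithmic above, with each point 1 library. *Rpt3R* and *Prosbeta2R2* are the highest, and *Rpt6R* is scattered within both knockdown groups.

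Genes that work with the proteasome were read from a list of 23 names, of which 21 matched a symbol and 20 were tested. After *M1BP* knockdown 1 was higher and 0 lower, against 16.5% and 11.5% of all genes tested. At an unadjusted p below 0.05 in edgeR, 3 were higher and 1 lower, against 21.8% and 18.8% of all genes tested. DESeq2 called 3 higher and 0 lower, against 1763 and 1283 of 13991 genes. After *mod(mdg4)* knockdown none passed the threshold in edgeR. At an unadjusted p below 0.05 in edgeR, 2 were higher and 1 lower, against 9.82% and 10.8% of all genes tested. DESeq2 called 1 lower, against 498 of 13685 genes. The assembly chaperone gene *Pomp* had a log2 fold change of 0.02 ± 0.17 (SE) after *M1BP* knockdown, and *cnc*, which encodes the transcription factor known to induce proteasome genes, 0.02 ± 0.15. The higher gene was *RpS27A*, which encodes ubiquitin fused to a ribosomal protein, with 408 and 292 CPM after *M1BP* knockdown and 219 to 298 CPM in mock libraries. Its groups overlapped (0.56 ± 0.18, SE, adjusted p = 0.044 in edgeR), and the call was lost without *M1BP* knockdown replicate 2 (log2 fold change 0.27, adjusted p = 0.30) and without mock replicate 1, 2 or 4 (0.11, 0.12 and 0.11). *RpL40*, the other ubiquitin fusion gene, differed between the knockdowns, with 426 and 330 CPM after *M1BP* knockdown and 142 and 183 CPM after *mod(mdg4)* knockdown (1.26 ± 0.27, SE, adjusted p = 0.012 in edgeR). That call was lost without *M1BP* knockdown replicate 2 (0.067) or *mod(mdg4)* knockdown replicate 1 (0.060).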

How the data were processed

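Nascent EU-labeled RNA was sequenced from Kc cells. Per the paper's methods and the submitters' notes, the authors trimmed reads with cutadapt 2.7, aligned them with HISAT2 2.1.0 to dm6 and counted them per gene and by strand with featureCounts 1.6.4. The deposited values are raw counts per gene, not normalized. A pair of count columns (2) under a shared header was left out. Libraries were grouped by their labels, and 9 of 11 were used.

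Counts were tested with the quasi-likelihood method of edgeR 4.0.16 under R 4.3.3. Library sizes were TMM-scaled, genes were filtered with edgeR's default, and p-values were adjusted over all genes tested by Benjamini-Hochberg at 0.05. Only the 2 groups compared were fitted. DESeq2 1.42.0 was an alternative. CPM were scaled over all 9 libraries. Each SE was derived from the log2 fold change and its F statistic. Gene positions came from the count table, and overlaps and exons from the dm6 annotation. The Motif 1 list is a supplementary table of the study. Searches for other promoter elements were not run. Floors of 3 counts cover counting error only, and groups of 2 limit the precision.

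The members and gene lists were chosen with earlier results of these data known. Genes were given library by library if they passed the threshold, were among the 3 highest or lowest core or regulatory genes, had 1 of the 3 largest ratios in the library labelled *Cp190* knockdown, or were paralogs with at least 10 counts in 1 library. Others were named as examples. The tests were tested on simulated counts. The alternatives were other scalings, filters, thresholds and models, each library left out in turn, each pair of mock libraries and the replicate number as a block. The crossed block and the count without overlapping or tandem genes were added after the data were seen.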

Additional observations from a re-analysis of the deposited data

Results flagged for a closer look

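*Rpn12* differed between the knockdowns in the direct test, with 26.0 and 23.6 CPM after *M1BP* knockdown and 59.0 and 68.7 CPM after *mod(mdg4)* knockdown (log2 fold change -1.32, adjusted p = 0.017 in edgeR).

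*Rpt2*, an ATPase gene of the base, lay below every mock library after *M1BP* knockdown and above every mock library after *mod(mdg4)* knockdown. It had 55.7 and 59.6 CPM after *M1BP* knockdown, 79.6 and 96.2 CPM after *mod(mdg4)* knockdown and 73.4 to 77.5 CPM in mock libraries. The direct comparison gave a log2 fold change of -0.56 ± 0.27 (SE) with an adjusted p of 0.25 in edgeR. A single edgeR model over all 9 libraries gave -0.59 and an adjusted p of 0.041. That model includes the library labelled *Cp190* knockdown, and no other alternative called *Rpt2* in this comparison.

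*Prosalpha4T2* had a mock library apart from the others, replicate 3, with 0 CPM where the others had 0.10 to 0.12 CPM. These are 0 counts against 3 counts each, at the floor. Among 37 members checked this was 1, and chance marks about 1 in 20 such groups.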

How the results depend on the processing

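After *M1BP* knockdown 3 members were higher and 3 lower. The number higher was 1 with at least 10 counts in every library, against mock replicates 1 and 2 alone, in the fit with a replicate block and at an adjusted p below 0.01. The number lower was 5 in DESeq2, 8 with library size only, 1 with upper-quartile scaling, with at least 10 counts in every library, with all libraries in one model and in the crossed replicate block, and 0 against mock replicates 1 and 2 alone, in the replicate block, at an adjusted p below 0.01 and at an absolute log2 fold change of at least 1. The calls over all genes moved with these settings too. Lower were 1097 of 9511 genes in the main fit, 1283 of 13991 in DESeq2 and 1430 of 9511 with library size only. Against mock replicates 1 and 2 alone 750 of 9154 were higher and 505 lower, and in the replicate block 466 of 9173 and 100. After *mod(mdg4)* knockdown DESeq2 called 1 lower in place of 0. Between the knockdowns (0 higher, 1 lower) the number higher was 1 in DESeq2 and with at least 10 counts in every library and 2 with all libraries in one model, and the number lower was 4 with all libraries in one model and 0 at an adjusted p below 0.01. With 1 library left out, 2 to 3 members were higher and 0 to 3 lower after *M1BP* knockdown, 0 to 2 and 0 to 1 after *mod(mdg4)* knockdown, and 0 to 1 and 0 to 2 between the knockdowns. The counts for the library labelled *Cp190* knockdown, 11 above and 16 below, moved by less than 1.5 times. For these changes the cause was not tested.

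Deviations of same-numbered libraries correlated at -0.134 in the *M1BP* comparison, where replicates 2 and 3 are shared with mock. In the *mod(mdg4)* comparison, which shares replicates 1 and 2, the value was -0.052. Each value rests on a single difference per group, and mock replicates 2 and 3 come from different mock pairs. The values therefore cannot decide whether the replicate numbers mark libraries made together or only name them. With the replicate block *Rpt4* kept a log2 fold change of 0.76 (adjusted p = 0.17) and *Rpn12* one of -0.83 (0.19). For the direct comparison, no paired analysis was possible because the groups share 1 number. No named log2 fold change that was called in edgeR with all libraries and TMM scaling turned its sign under any alternative. *Prosbeta5* and *Rpt6R* after *mod(mdg4)* knockdown, called only under an alternative, did change sign. Their log2 fold changes ran from -0.14 to 0.74 and from -3.48 to 0.38. The libraries after knockdown held fewer reads than mock libraries.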
